A study of Mus musculus with 16 samples.

Results

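The cyclin-dependent kinase (CDK) inhibitors and the p53 axis were examined as a set of 10 genes taken by name. Cdkn1a, Cdkn1b and Cdkn1c make up the Cip/Kip family, Cdkn2a, Cdkn2b, Cdkn2c and Cdkn2d the Ink4 family, and Trp53, Mdm2 and Rb1 stand up- and downstream of them. Of the 10 genes, 9 had a named probe set among the 19505 named genes of the array, with 1 probe set each, and Trp53 is not analysed here. A filter on low signal, which asked that a gene exceed the 40th percentile on 4 or more of the 16 arrays, kept 6 of the 9 (Cdkn1a, Cdkn1c, Cdkn2c, Cdkn2d, Mdm2 and Rb1) among 16665 genes. Cdkn1b, Cdkn2a and Cdkn2b did not pass it, and their differences come from a fit without the filter over all 19505 genes.

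CDK inhibitors slow or stop the cell cycle by binding the kinases that drive cells through G1 and into S phase. Ink4 proteins bind CDK4 and CDK6, whereas Cip/Kip proteins act on several cyclin-CDK complexes. When these kinases are inhibited, the retinoblastoma protein encoded by Rb1 stays bound to E2F transcription factors and holds their target genes down. p53 raises Cdkn1a after DNA damage and also raises Mdm2, whose product in turn marks p53 for degradation. The Ink4a product of Cdkn2a and the Cdkn1a product p21 are widely used as markers of senescent cells. The study stained the disc for p21 and p19 among other proteins and reported both as increased in Sirt6 cKO mice. Those are protein levels, whereas the arrays measure RNA. The sources used here do not say which gene the p19 antibody was raised against, and both Cdkn2a (p19ARF) and Cdkn2d (p19INK4d) encode a protein of that name in the mouse.

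The arrays compared Sirt6 cKO with Sirt6 fl/fl mice at 24 months of age. SIRT6 is a chromatin-bound deacetylase. In cKO mice floxed Sirt6 alleles were deleted by Acan-CreERT2, an inducible Cre expressed from the aggrecan locus and hence active in cartilage as well as disc, and both genotypes carried the floxed alleles, received tamoxifen as adults, were male and were of mixed strain background. Nucleus pulposus (NP), the soft core of the disc, and annulus fibrosus (AF), its fibrous ring, were dissected from the same 4 mice per genotype, so each of the 4 groups (fl/fl NP, cKO NP, fl/fl AF and cKO AF) held 4 arrays and each array the pooled lumbar and caudal discs of a single animal.

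On these arrays the targeted gene itself gave little signal. Sirt6 was over background (at least 2-fold above the median of 23 background control probe sets on the same array) on 0 of 16 arrays. Its log2 signal differed between cKO and fl/fl by -0.03 in NP (two-sided exact permutation p = 0.829, n = 4 per group) and by -0.50 in AF (exact permutation p = 0.2), where 0.0286 is the smallest p that 4 arrays against 4 allow. Over the 8 omissions of 1 AF array, the AF difference ran from -0.73 (without cKO AF array 3) to -0.23 (without cKO AF array 1). The exact permutation p of these omissions ran from 0.0286 to 0.429. Acan was over background on 8 of 8 NP and 8 of 8 AF arrays. Of 10 NP markers 6 passed the filter, and 5 of these (Krt8, Krt18, Krt19, Cdh2 and Car3) were over background on at least 4 of 8 NP arrays and Shh on 1. Of 10 AF and tendon markers, Mkx was over background on 7 of 8 AF arrays, Col1a1 on 6, Tnmd and Fmod on 3 each, and 4 (Scx, Thbs4, Col5a1 and Kera) on 0. In the other tissue, Krt8 was over background on 7 of 8 AF arrays, Cdh2 and Car3 on 6 each, Shh on 3 and Krt18 and Krt19 on 1 each. Mkx was so on 7 of 8 NP arrays, Tnmd on 6, Col1a1 on 5 and Fmod on 3. Many of these markers were thus over background in both tissues. Arrays 1 and 3 of cKO NP and arrays 1 and 4 of cKO AF stood apart. Array 1 of cKO AF had the lowest correlation with the mean of the other arrays of its tissue (r = 0.52 over 16665 genes, against 0.67 to 0.81 for the other AF arrays). The mean of 10 cartilage markers was 5.90 and 6.20 on the pair in cKO NP and at most 4.93 on the other NP arrays, and it was 9.83 on cKO AF array 4 and at most 5.88 on the other AF arrays. The mean of 12 skeletal muscle markers was 6.10, 6.12 and 6.81 on these 3 arrays. In bulk tissue, fewer cells of a type and less RNA per cell cannot be told apart.

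Most of the signal of the CDK inhibitors lay near background. Of the 144 values (9 genes on 16 arrays), 25 were over background, 9 of 72 in NP and 16 of 72 in AF, where 16.5% and 21% of all gene and array pairs were. Cdkn2c was the gene measured most often, over background on 13 of 16 arrays (5 in NP and 8 in AF), followed by Cdkn2d on 5, Mdm2 on 4 (all AF) and Cdkn1a on 3. Cdkn1b, Cdkn1c, Cdkn2a, Cdkn2b and Rb1 were over background on 0 of 16, as were 36.3% of all named genes. A difference in one of those 5 genes was therefore not well measurable at this signal, and no statement on the absence of their transcripts can be drawn from it. Where a group was not over background on any array, a difference is one of fitted log2 signal and no fold is given.

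**Figure D1:**
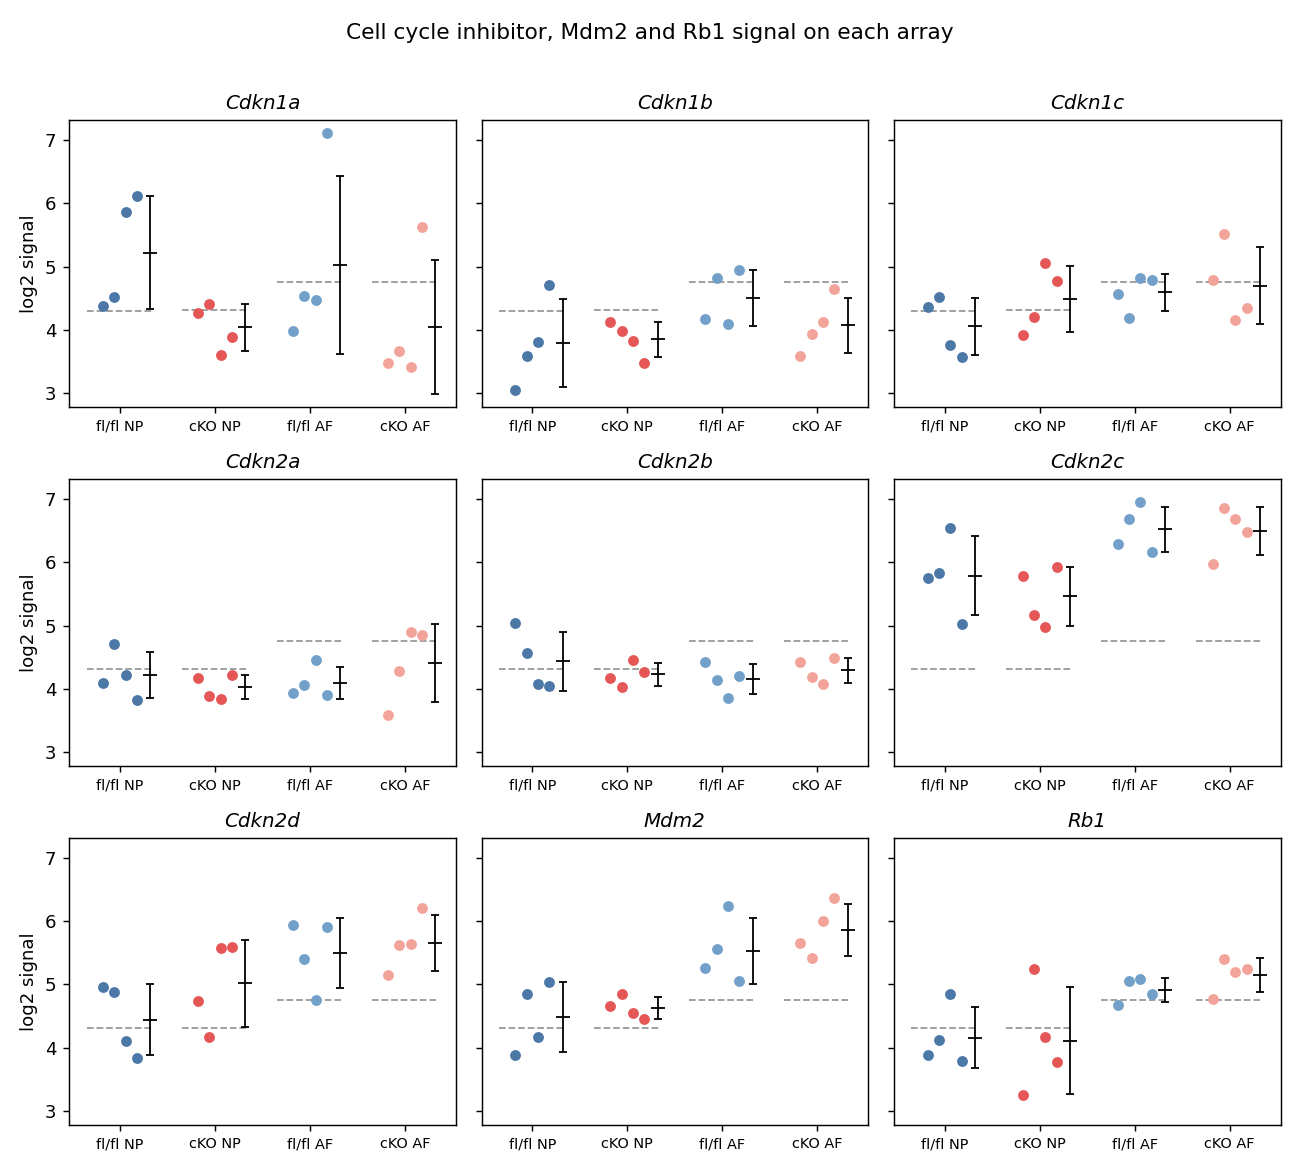
Log2 signal (y axis, no unit) of 9 genes on every array. Points are single arrays (4 per group, in label order), black marks give the group mean with its SD, and dashed lines give the median background control level of the group. Cdkn2c sits well above the lines in all groups, Cdkn1a only on single arrays of the fl/fl groups and 1 cKO AF array, and Cdkn1b, Cdkn2a and Cdkn2b around or under them.

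Among the Cip/Kip genes, Cdkn1a had lower signal in cKO than in fl/fl NP. Cdkn1a encodes p21, the inhibitor that p53 induces. The direction of this RNA signal was opposite to that of p21 protein, which the study reported as increased in cKO discs. The 250 bases before its upstream start site (RefSeq, GRCm38.p6, chr17:29090729-29090978, plus strand) are shown because they hold the best known p53 response element of the family. The capitals mark an inverted repeat of 20 bases that begins 51 bases before the start site and has the motif CATGNNNNNNCATG at its centre.
Cdkn1a: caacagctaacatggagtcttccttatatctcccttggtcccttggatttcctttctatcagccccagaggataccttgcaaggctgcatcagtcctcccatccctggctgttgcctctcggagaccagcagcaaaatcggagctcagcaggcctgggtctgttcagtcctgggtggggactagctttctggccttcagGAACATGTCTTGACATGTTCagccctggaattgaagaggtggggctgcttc
The motif, which reads the same on both strands and was chosen after this window had been seen, occurs in 0.712% of 32851 mouse windows of 300 bases, each 250 before and the rest after a start site. It occurs in none of the other 9 windows, which belong to the second Cdkn1a start site and to 6 further genes (Cdkn1b, Cdkn2a, Cdkn2b, Cdkn2c, Cdkn2d and Mdm2). The looser p53 half-site motif, found in 8.36% of windows, also matched in those of Cdkn2d and Mdm2. Such a match describes letters and is no evidence of binding in the disc.

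In fl/fl NP the log2 signal of Cdkn1a was 4.39, 4.52, 5.86 and 6.12 on the 4 arrays. In cKO NP it was 4.28, 4.41, 3.60 and 3.88. Arrays 3 and 4 of fl/fl NP stood well above every cKO array and were over background, the other 2 lay at the level of the upper cKO arrays, and the groups overlapped by a single pair (4.41 in cKO against 4.39 in fl/fl). The difference was -1.18 (SE 0.41, 95% interval -2.06 to -0.30), with an adjusted p of 0.934 in limma (Benjamini-Hochberg over 16665 genes). Cdkn1a was over background on 0 of 4 cKO NP arrays and 2 of 4 fl/fl NP arrays, so the size of the difference is not that of a measured fold. The fitted difference passed the p and fold thresholds that the study set. They ask for p no higher than 0.05 before adjustment and a change of 1.75-fold or more. Cdkn1a was the only one of the 6 tested genes to pass them. Over all genes tested, 2.39% passed those thresholds in NP and 0.978% did so with lower signal in cKO. Cdkn1a no longer passed them when the spread was estimated from all 16 arrays, nor without cKO NP arrays 1 and 3, where the difference was -1.07. The study also set a minimum for detection above background before its test, a condition not applied here. By the rule used here, most NP values of Cdkn1a were not over background. In NP 2.81% of all genes had groups that did not overlap.

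In AF, Cdkn1a read 3.98, 4.53, 4.48 and 7.11 in fl/fl and 3.48, 3.67, 3.41 and 5.62 in cKO. Array 4 was far above the rest in both genotypes, and the remaining 3 cKO arrays were all below the remaining 3 fl/fl arrays. The difference was -0.98 (SE 0.67, 95% interval -2.44 to 0.48, limma adjusted p = 0.984), short of the study thresholds that 3.54% of genes passed in AF. It was -0.29 without fl/fl AF array 4, -0.79 without cKO AF array 1, -1.51 without cKO AF array 4 and -1.49 without both of these cKO arrays. The other 3 arrays of each group were below the background median, and fl/fl AF array 4 was the only AF array over background. Markers of other tissues also moved with these arrays. On fl/fl AF array 4 the mean of 9 epidermis markers was 6.18, against 4.57 to 5.70 on the other AF arrays, and cKO AF array 4 was the one with high cartilage and muscle markers. Their part in the Cdkn1a values was not tested.

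Averaged over both tissues the genotype difference of Cdkn1a was -1.08 (SE 0.43, 95% interval -1.98 to -0.18, adjusted p = 0.907 in limma over 16 arrays), and -0.73 without fl/fl AF array 4. The averaged difference passed the study thresholds, as did 1.13% of all genes, but no longer without fl/fl AF array 4. This fit treats NP and AF arrays, which came from the same mice, as independent. The difference between tissues in the effect was -0.20 (95% interval -1.99 to 1.60, limma adjusted p = 0.991), an interval wide enough to hold effects of very different size in NP and AF. The 3 genes whose signal followed that of Cdkn1a most closely over the 16 arrays, after centring within tissue, were Pabpn1 (r = 0.88), Myl3 (r = 0.85) and Mst1r (r = 0.83). These correlations describe the same 16 arrays and rest in part on the few arrays with high Cdkn1a. Pabpn1, Myl3 and Mst1r were over background on 3, 6 and 2 of 16 arrays.

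For the other Cip/Kip genes, the 95% intervals of the genotype differences spanned 0 in both tissues. Cdkn1c encodes p57, an imprinted inhibitor that is prominent in developing cartilage. Its log2 signal was 4.36, 4.52, 3.77 and 3.58 in fl/fl NP and 3.93, 4.21, 5.06 and 4.78 in cKO NP. The upper 2 cKO arrays exceeded all fl/fl arrays and the lower 2 lay within them, and the difference was 0.43 (95% interval -0.27 to 1.14, limma adjusted p = 0.934). In AF it was 0.11 (95% interval -0.69 to 0.91, limma adjusted p = 0.996). The fl/fl AF arrays spanned 4.20 to 4.82 and the cKO AF arrays 4.16 to 5.51, so the second range enclosed the first. Cdkn1b encodes p27, which holds many resting cells in G0. Its signal ran from 3.06 to 4.72 in fl/fl NP and from 3.48 to 4.13 in cKO NP, with only array 4 of fl/fl NP above the median background control. In the fit without the filter, the Cdkn1b difference was 0.06 in NP (95% interval -0.67 to 0.79) and -0.44 in AF (95% interval -1.19 to 0.32).

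Of the Ink4 genes, Cdkn2a and Cdkn2b lie next to each other on chromosome 4. Cdkn2a has 2 start sites in RefSeq, the upstream one for the p19ARF transcript and the downstream one for the p16INK4a transcript, while a single probe set stands for the gene and does not tell these products apart. The bases before both start sites are shown to make that difference visible (GRCm38.p6, minus strand, chr4:89294620-89294869 and chr4:89282193-89282442). The capitals mark the E2F motif TTTCCCGC, which was searched together with TTTGGCGC on both strands and begins 99 bases before the upstream start site. One or the other occurs in 1.56% of windows.
Cdkn2a, upstream start site: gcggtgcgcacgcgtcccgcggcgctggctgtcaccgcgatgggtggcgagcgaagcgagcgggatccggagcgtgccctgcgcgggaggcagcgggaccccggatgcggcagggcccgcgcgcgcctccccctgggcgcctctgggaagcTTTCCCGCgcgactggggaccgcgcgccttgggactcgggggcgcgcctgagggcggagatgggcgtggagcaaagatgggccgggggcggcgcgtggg
Cdkn2a, downstream start site: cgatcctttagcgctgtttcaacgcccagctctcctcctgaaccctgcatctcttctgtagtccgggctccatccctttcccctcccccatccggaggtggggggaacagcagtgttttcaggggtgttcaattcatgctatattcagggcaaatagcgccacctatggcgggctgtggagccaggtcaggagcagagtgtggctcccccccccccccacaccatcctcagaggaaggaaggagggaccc
Neither spelling occurs in the downstream window, which says only that these letters are not there.

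The Cdkn2a signal was 4.10, 4.70, 4.23 and 3.83 in fl/fl NP and 4.16, 3.88, 3.84 and 4.23 in cKO NP. In AF it was 3.93, 4.07, 4.46 and 3.91 in fl/fl and 3.59, 4.28, 4.90 and 4.86 in cKO. The NP groups overlapped almost fully, and in AF cKO arrays 3 and 4 exceeded all fl/fl arrays while cKO array 1 was the lowest of the 16. All of these values were near or below background. Without the filter, the Cdkn2a difference was -0.19 in NP (95% interval -0.73 to 0.36, limma adjusted p = 0.948) and 0.31 in AF (95% interval -0.46 to 1.09, limma adjusted p = 0.981). Cdkn2b encodes p15, which TGF-beta induces in epithelial cells. Its arrays ranged from 4.05 to 5.04 in fl/fl NP, 4.03 to 4.46 in cKO NP, 3.85 to 4.42 in fl/fl AF and 4.08 to 4.49 in cKO AF. The Cdkn2b differences were -0.20 in NP (95% interval -0.79 to 0.38) and 0.14 in AF (95% interval -0.49 to 0.77).

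Cdkn2c, which encodes p18, was the one inhibitor measured clearly over background. Its log2 signal was 5.75, 5.83, 6.54 and 5.02 in fl/fl NP and 5.78, 5.16, 4.97 and 5.93 in cKO NP. In AF it was 6.28, 6.68, 6.94 and 6.17 in fl/fl and 5.97, 6.85, 6.68 and 6.49 in cKO. Genotypes overlapped in both tissues. The difference was -0.32 in NP (SE 0.35, 95% interval -1.08 to 0.44, limma adjusted p = 0.94) and -0.02 in AF (SE 0.34, 95% interval -0.76 to 0.71, limma adjusted p = 0.996). Without cKO AF array 1 the AF difference was 0.15. Changes of a size inside those intervals are not excluded by these arrays. The genes with the most similar pattern over the 16 arrays, centred within tissue, were Casp14 (r = 0.86), Lgals12 (r = 0.83) and Tomm40l (r = 0.82). They were picked as the highest correlations among the genes kept by the filter, and were over background on only 2, 1 and 4 of 16 arrays.

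Cdkn2d, the gene of p19INK4d, leaned the opposite way to Cdkn1a in NP. Its signal was 4.95, 4.87, 4.10 and 3.83 in fl/fl NP and 4.73, 4.17, 5.57 and 5.59 in cKO NP. Arrays 3 and 4 of cKO NP were above all fl/fl arrays and over background, and the other 2 lay among them. The difference was 0.58 (SE 0.38, 95% interval -0.26 to 1.41, limma adjusted p = 0.934). Over the 8 omissions of 1 NP array it ran from 0.37 (without fl/fl NP array 4) to 0.86 (without cKO NP array 2). Cdkn2d passed the study thresholds only in the last of these. Over the same omissions, 342 to 710 of all 16665 genes passed them. In AF Cdkn2d read 4.75 to 5.93 in fl/fl and 5.15 to 6.21 in cKO, and differed by 0.16 (95% interval -0.66 to 0.98). Over the 16 arrays, Cdkn2d and Cdkn1c showed the highest correlation among the 15 pairs of tested genes (r = 0.48 after centring within tissue), and Cdkn1a and Cdkn1c the lowest (r = -0.41).

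The 95% intervals of the genotype differences of Mdm2 and Rb1 spanned 0 as well. Mdm2 encodes the ubiquitin ligase that turns p53 over. Its signal was 3.88, 4.85, 4.17 and 5.03 in fl/fl NP and 4.65, 4.84, 4.56 and 4.45 in cKO NP, the second group lying wholly within the first, with a difference of 0.14 (95% interval -0.50 to 0.79). In AF it was 5.27, 5.55, 6.24 and 5.06 in fl/fl and 5.65, 5.42, 6.0 and 6.37 in cKO, with a difference of 0.33 (95% interval -0.46 to 1.13, limma adjusted p = 0.989). In cKO AF 3 of 4 arrays were over background and in fl/fl AF 1 of 4. Rb1, which encodes the pocket protein that CDK4 and CDK6 phosphorylate, ranged from 3.79 to 4.85 in fl/fl NP and from 3.25 to 5.24 in cKO NP. Its differences were -0.05 in NP (95% interval -0.93 to 0.83) and 0.23 in AF (95% interval -0.44 to 0.91).

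**Figure D2:**
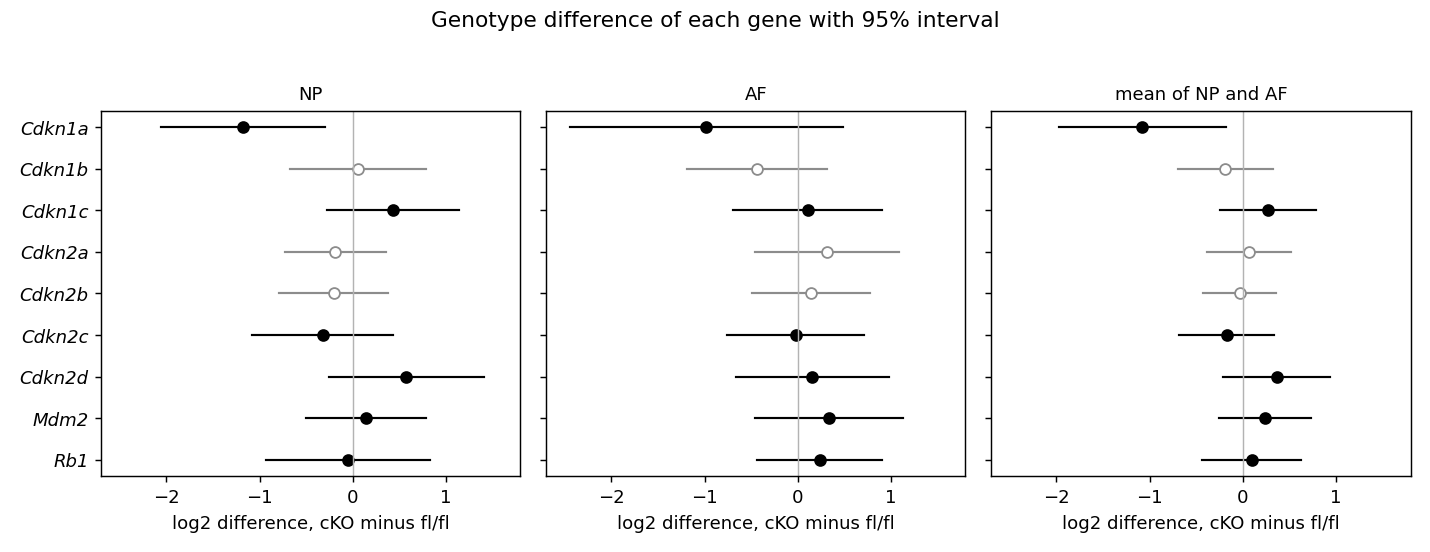
Difference in log2 signal between cKO and fl/fl (x axis) for each gene, in NP, in AF and averaged over both, with 95% intervals from limma. Filled points are the 6 genes kept by the filter and open grey points the 3 genes fitted without it; the intervals of Cdkn1a in NP and in the average lie below 0 (-2.06 to -0.30 in NP), and every other interval spans 0.

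Across the 9 genes fitted without the filter, the genotype difference was positive for 4 and negative for 5 in NP, where 46.8% of all genes were positive, and positive for 6 and negative for 3 in AF, where 49.1% were. At an unadjusted p under 0.05 there was 1 gene in NP (Cdkn1a) and 0 in AF, against 5.03% and 4.07% of all genes. No gene of the set had groups that did not overlap in either tissue, as 2.85% of all genes did in NP and 2.69% in AF. At a limma adjusted p under 0.05, 0 genes were called in either tissue, in the set or elsewhere.

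The genes through which the CDK inhibitors act were described with lists of textbook members. Of 17 tested G1 and S phase cyclins and CDKs, 7 had higher and 10 lower signal in cKO NP (median -0.04, against -0.02 over all genes), and 1 passed an unadjusted p of 0.05, where 4.94% of all genes did. This was Ccnh, the cyclin of the CDK-activating kinase. Ccnh read 4.84, 4.12, 3.78 and 4.00 in fl/fl NP and 5.94, 4.78, 5.04 and 5.75 in cKO NP, with one cKO array inside the fl/fl range (difference 1.19, SE 0.33, limma adjusted p = 0.934). In AF the same gene differed by -0.59 (limma adjusted p = 0.984), and 0 of the 17 passed. Cdk4, the main partner of the Ink4 proteins, differed by -0.49 in NP (SE 0.24, short of the threshold) and was over background on 0 of 8 NP arrays. Ccne2, a cyclin of CDK2, differed by -0.76 in NP (SE 0.37, likewise short of it).

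Among 16 tested pocket proteins and E2F factors, 0 passed an unadjusted p of 0.05 in NP, where 4.94% of all genes did, and 0 in AF, where 4% did. The list was among the better measured ones, with 7 of its genes over background on at least 4 NP arrays and 9 on at least 4 AF arrays. E2f8, which encodes a repressive E2F factor, was over background on 7 of 8 NP arrays and E2f7, its close relative, on 7 of 8 AF arrays. Rbl2, which encodes the pocket protein p130 of resting cells, differed by -1.12 in AF (SE 0.62, limma adjusted p = 0.984). Its fl/fl AF mean was 7.55 ± 1.44 (SD, n = 4) and its cKO AF mean 6.43 ± 0.63 (SD, n = 4), a gap smaller than the larger of these SDs. Of 23 E2F targets and proliferation genes, 10 had higher and 13 lower signal in cKO NP (median -0.04) and 11 and 12 in AF (median -0.02). Chek1, a checkpoint kinase gene, was the single one past an unadjusted p of 0.05 in NP, with a difference of -0.75 (limma adjusted p = 0.934), and 0 of 23 passed in AF. The Chek1 mean was 11.55 in fl/fl NP and 10.81 in cKO NP, and its signal was above that of every other gene of the list on every array. Whether this probe set reads Chek1 alone was not tested. The MCM helicase gene Mcm3 and the S phase enzyme gene Tk1 differed by -0.51 and -0.46 in NP, neither past the threshold, and both were over background on 0 of 8 NP arrays.

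On the p53 side, 24 regulators and relatives of p53 were tested. In NP 11 had higher and 13 lower signal in cKO and 1 passed an unadjusted p of 0.05, where 47.2% of all genes were higher and 4.94% passed. In AF the split was 12 to 12 with 0 past it, where 50.7% of all genes were higher and 4% passed. Usp7, the deubiquitinase of MDM2 and p53, was the one gene in NP. It read 5.83, 5.88, 4.54 and 5.62 in fl/fl NP and 4.21, 4.67, 3.95 and 3.65 in cKO NP, so that 3 fl/fl arrays stood above every cKO array and the remaining one lay within them. The difference was -1.35 (SE 0.34, limma adjusted p = 0.934). In AF it was 0.47 (SE 0.37), and the difference of the effects between tissues was -1.81 (SE 0.51, limma adjusted p = 0.988). Usp7 was over background on 3 of 8 NP arrays, all of them fl/fl, and on 0 of 8 AF arrays. These differences are thus ones of fitted log2 signal near background. Ing1, a chromatin cofactor of p53, differed by 0.71 in NP and 0.80 in AF, short of the threshold in each.

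Of 27 tested p53 targets other than Cdkn1a and Mdm2, 12 had higher and 15 lower signal in cKO NP (median -0.14), and 11 and 16 in AF (median -0.11). At an unadjusted p under 0.05, 2 were higher and 1 lower in NP (11.1% of the list, against 4.94% of all genes) and 2 were higher in AF (7.41%, against 4%). Cd82, a tetraspanin, differed by 1.87 in NP (SE 0.56, limma adjusted p = 0.934). It read 4.94, 5.03, 4.45 and 4.90 in fl/fl NP and 8.03, 5.38, 7.87 and 5.52 in cKO NP, and the high values were those of cKO arrays 1 and 3, the arrays with high cartilage and muscle markers. The part of those markers in the Cd82 values was not tested. Trp53inp1, a stress response gene, differed by 0.69 and Dram1, a lysosomal regulator of autophagy, by -0.79, both with a limma adjusted p of 0.934. In AF the genes were Casp1, the inflammasome caspase, at 0.85 and Aen, a nuclease of p53-dependent apoptosis, at 0.72, both with a limma adjusted p of 0.984. Aen differed by 0.46 in NP (limma adjusted p = 0.934) and read 4.18 to 4.48 in fl/fl NP and 4.52 to 5.11 in cKO NP, without overlap, though it was over background on 0 of 16 arrays.

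The regulators of the Ink4 locus were chiefly Polycomb proteins, which hold Cdkn2a and Cdkn2b silent. Of 18 tested genes, 12 had higher signal in cKO NP (median 0.16), where 47.2% of all genes did, and 9 in AF (median 0.00), where 50.7% did. At an unadjusted p under 0.05, 2 were higher in NP and 2 lower in AF, where 4.94% and 4% of all genes passed. In AF Phc3, a Polycomb subunit, read 5.86, 5.56, 5.72 and 5.28 in fl/fl and 4.67, 4.29, 3.78 and 4.77 in cKO, without overlap, with a difference of -1.23 (SE 0.34, limma adjusted p = 0.984). At the same time 2.61% of all genes had AF groups that did not overlap. Bmi1, the best known repressor of the locus, read 6.42, 7.95, 6.12 and 5.81 in fl/fl AF and 5.72, 5.58, 5.82 and 4.77 in cKO AF. The Bmi1 difference was -1.10 (limma adjusted p = 0.984), and a single cKO array exceeded the lowest fl/fl array. In NP Kdm6b, the demethylase that opposes Polycomb, read 8.34 and 8.47 on cKO arrays 1 and 3 and 3.81 to 4.30 on the other 6 arrays, and Id2 6.30 and 5.98 on the same 2 arrays and 3.94 to 4.36 on the others. Their differences of 2.04 and 1.09 (limma adjusted p = 0.934 for both) thus rested on the 2 arrays with high cartilage and muscle markers, whose part was not tested.

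**Figure D3:**
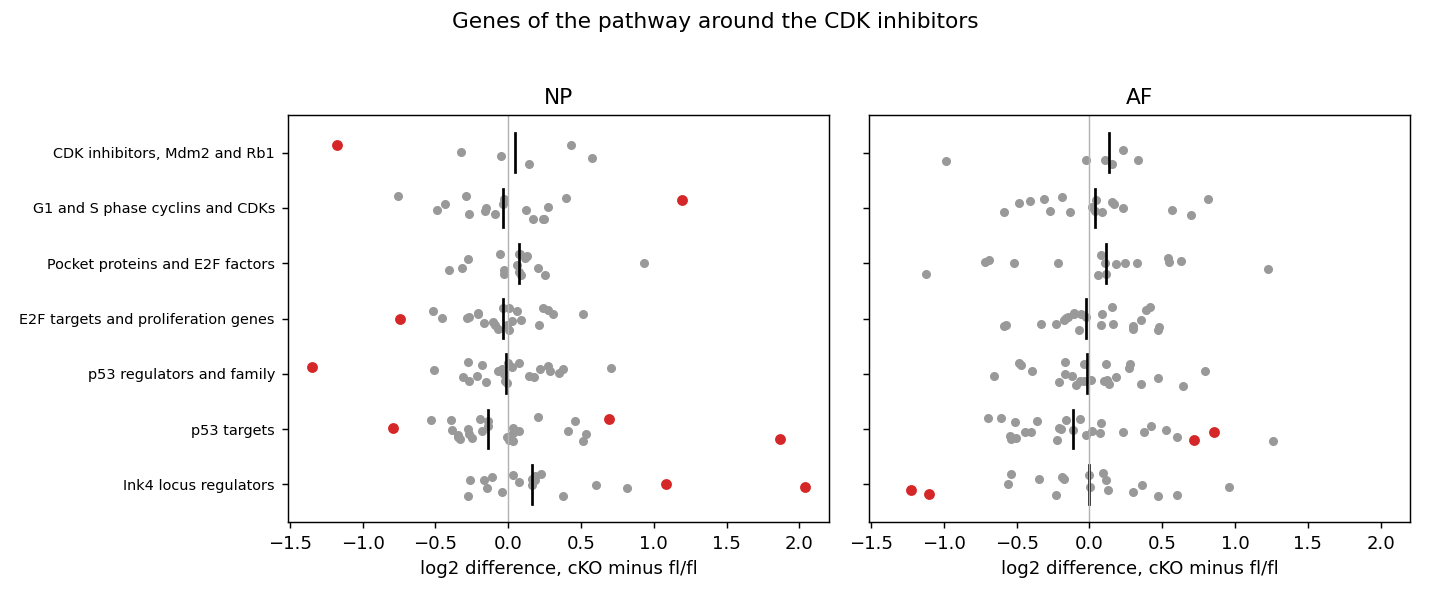
Difference in log2 signal between cKO and fl/fl (x axis) in NP and AF for the genes of each list. Each point is a gene kept by the filter, red points have an unadjusted limma p under 0.05, and black bars are list medians, all between -0.14 and 0.16; no point passed an adjusted p of 0.05.

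Between the tissues, the deposited signal of Mdm2 was lower in NP than in AF in both genotypes and that of Cdkn2c in cKO. The Mdm2 difference was -1.05 in fl/fl (SE 0.33, adjusted p = 0.0419) and -1.23 in cKO (SE 0.33, adjusted p = 0.0183), with no overlap of NP and AF arrays in either genotype, as for 20.5% of all genes in fl/fl and 22.2% in cKO. The Cdkn2c difference was -0.74 in fl/fl (adjusted p = 0.148) and -1.04 in cKO (adjusted p = 0.0435), without overlap in cKO. For Cdkn2d it was -1.06 in fl/fl (adjusted p = 0.0726) and -0.64 in cKO, and for Rb1 -0.76 and -1.04 (adjusted p = 0.158 and 0.0527), all from limma over 16 arrays. Here too the fit treats NP and AF arrays, which came from the same mice, as independent. Without cKO AF array 1, Rb1 in cKO was called too (-1.16, limma adjusted p = 0.0433). For Cdkn1c it was -0.54 and -0.21, and for Cdkn1a 0.20 in fl/fl and -0.00 in cKO. In the fit without the filter, Cdkn1a, Cdkn2a (0.12) and Cdkn2b (0.28) were the 3 of 9 genes with a positive difference in fl/fl, where 17.6% of all genes had one, and 0 of 9 had one in cKO, where 18% did. Mdm2 was over background on 0 of 8 NP arrays.

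These differences have to be read against those of the arrays as a whole. The median of all genes was itself lower in NP, with a difference of -0.50 in fl/fl and -0.53 in cKO, and 14% and 18.2% of genes were called at a limma adjusted p under 0.05, whereas the median background control was 4.28 to 4.33 on NP and 4.65 to 4.83 on AF arrays. On the scale of signal over background, the Mdm2 difference was -0.59 in fl/fl and -0.81 in cKO (adjusted p = 0.404 and 0.204) and the Cdkn2c difference -0.28 and -0.61 (adjusted p = 0.743 and 0.343). On that scale 0.894% and 1.54% of genes were called and 0 of the 6 tested genes of the set. The sources used here do not say whether the arrays of both tissues were normalized as one set, so the shift of the tissue and that of the processing cannot be told apart.

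**Figure D4:**
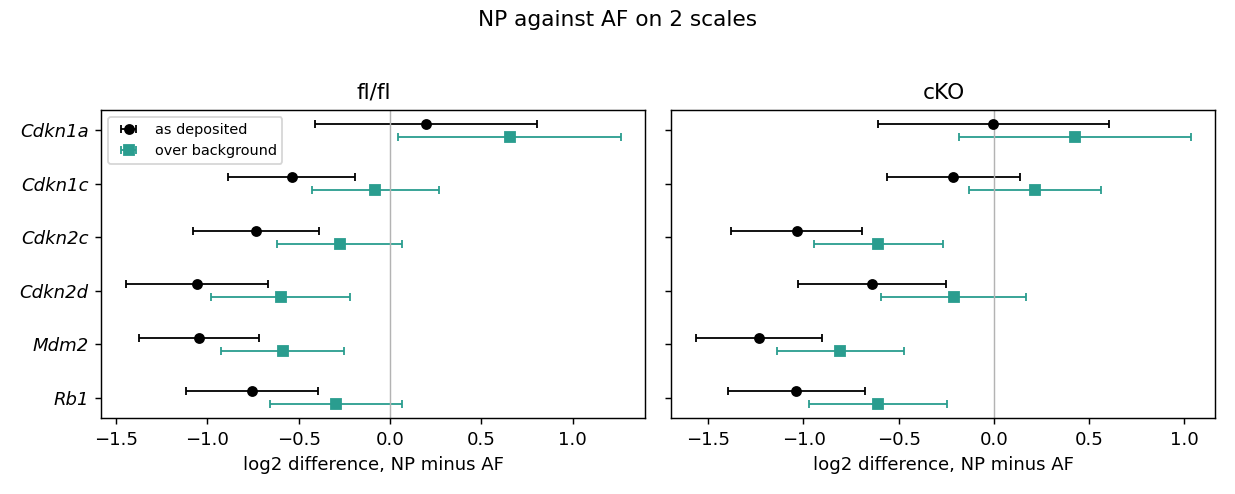
Difference in log2 signal between NP and AF (x axis) in fl/fl and cKO mice for the 6 genes kept by the filter, with standard errors. Black circles use the deposited values and green squares the values minus the background median of each array; all 6 genes lie further right on the second scale, Mdm2 in cKO moving from -1.23 to -0.81.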

How the data were processed

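NP and AF of lumbar and caudal discs of 4 Sirt6 fl/fl and 4 Sirt6 cKO mice were measured on 16 Mouse Clariom S arrays. The authors labelled cDNA with the WT Plus kit and summarised the arrays by SST-RMA in Expression Console. Transcriptome Analysis Console stands in the submitters' processing notes. Deposited were log2 signals for 28846 probe sets, from 2.56 to 19.9, used here without further normalization. The sources used here do not give the build behind the probe sets. Precision is limited by the number of arrays.

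Probe sets with 1 gene symbol in the platform annotation (19572, for 19505 genes) were used. For the 55 genes with several, the one with the highest mean was taken. The filter kept 16665 genes. Groups were compared by limma (3.58.1, under R 4.3.3, no covariates), within each tissue for genotype and over 16 arrays otherwise, with Benjamini-Hochberg adjustment. Limma stood in for SAM, which was not run. The study's minimum for detection above background was not applied. For Sirt6 an exact permutation test was used. Motifs were searched in RefSeq start site windows of GRCm38.p6, and 7 of the 9 genes with a probe set had a window. Cdkn1c and Rb1 were named only. Plots were made in Python 3.11.15 (matplotlib 3.10.9).

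The genes and lists were chosen with earlier results of these data known. Named were all genes of the set, Sirt6, up to 4 genes per list and tissue with the lowest p, and the 3 genes most like Cdkn1a and Cdkn2c. Label numbers were not used to pair arrays, since same-numbered arrays did not deviate together (correlations -0.142 to 0.062). Alternatives covered the filter, normalization, array weights, eBayes options, the replicate block and left-out arrays. Dropping cKO NP arrays 1 and 3 or cKO AF arrays 1 and 4 was added after seeing the data.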

Additional observations from a re-analysis of the deposited data

Results flagged for a closer look

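In 3 of 40 groups of 4 arrays (the 9 genes and Sirt6 in the 4 groups), a single array lay far from the others, its gap to the nearest array taking up more than 0.829 of the range of the group. Chance flags about 1 in 20 groups. Cdkn1a was highest on cKO AF array 4, at 5.62 against 3.41 to 3.67 on the other 3 arrays, a gap of 0.882 of the range. That array also held the highest cartilage and muscle marker means of the AF arrays (9.83 and 6.81), whose part in the value was not tested. Sirt6 was highest on cKO NP array 4, at 4.54 against 3.69 to 3.81 (0.866), and on fl/fl AF array 4, at 5.13 against 4.49 to 4.59 (0.854). All of these Sirt6 values were under the level called over background.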

How the results depend on the processing

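Limits were set by the signal, since 5 of the 9 genes were over background on 0 of 16 arrays, and by 4 animals per group. The study accepted RNA with an integrity number (RIN) above 4 for the arrays, and the part of RNA quality in the signals was not tested. The direction and call of Cdkn1a in NP were the same without the filter, under the other 3 scalings, with array weights and with a trended eBayes, and its difference was -1.46 to -0.88 when single arrays were left out. Its p was above 0.05 in the fit over 16 arrays and without cKO NP arrays 1 and 3, leaving 0 genes of the set past the study thresholds in NP in both.

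A stricter filter (over background on at least 8 of 16 arrays) kept 2742 genes. It left 83 of them past the study thresholds in NP, 92 in AF and 66 in the average. In the main fit these counts were 398, 590 and 189 of 16665 genes. Of the set it kept only Cdkn2c, which did not pass them in NP, so Cdkn1a was not tested there. At a limma adjusted p under 0.05 between tissues it left 440 (fl/fl) and 670 (cKO) of the 2742 genes. The main fit called 2330 and 3025 of 16665 genes. Between tissues, the counts were 211 and 185 after quantile normalization, 117 and 239 after median centring and 149 and 256 over background, against 2330 and 3025 as deposited. There the NP minus AF difference in cKO turned to 0.35, 0.53 and 0.43 for Cdkn1a and to 0.26, 0.32 and 0.22 for Cdkn1c. The AF genotype difference of Cdkn2c turned to 0.0018 over background, 0.055 with array weights and 0.25 without cKO AF arrays 1 and 4. Without cKO NP arrays 1 and 3, 616 genes passed in NP, 1 at an adjusted p under 0.05, and Rb1 turned to 0.35. Without all 4 of these arrays the average of Cdkn2c was 0.0029. At 4-fold over background 0 genes of the set were measured on at least 8 arrays, over the 95th percentile of the controls 3, and by the main rule 1. The cause of these changes was not tested.

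Leaving out 1 array at a time gave 342 (without cKO NP array 1) to 710 (without cKO NP array 4) genes past the study thresholds in NP and 1 to 2 of the set, the second being Cdkn2d without cKO NP array 2. The ranges were 591 to 805 genes and 0 to 1 of the set in AF (Cdkn1a without cKO AF array 4), 164 to 293 genes in the average, and 1346 to 2842 (fl/fl) and 1450 to 3201 (cKO) genes between tissues. Genotype differences changed sign in NP for Mdm2 (-0.057 to 0.33) and Rb1 (-0.42 to 0.24), in AF for Cdkn1c (-0.16 to 0.29), Cdkn2c (-0.14 to 0.15) and Cdkn2d (-0.093 to 0.33), and in the average for Rb1 (-0.094 to 0.24). The difference between tissues in the effect did so for Cdkn1a (-0.89 to 0.33) and Rb1 (-0.66 to 0.0048), and NP minus AF for Cdkn1a (-0.15 to 0.89 in fl/fl, -0.21 to 0.52 in cKO) and Cdkn1c in cKO (-0.40 to 0.058). Sirt6 ranged from -0.23 to 0.055 in NP, with its sign reversed in 5 of 8 omissions and an exact permutation p of at least 0.229. In AF Sirt6 ranged from -0.73 to -0.23, with an exact permutation p of 0.0286 to 0.429. The called difference of Mdm2 between tissues in fl/fl lost its call in 7 of 16 omissions and that of Cdkn2c in cKO in 8.

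With the label number as a replicate block, Cdkn1a passed the study thresholds in NP and in AF (adjusted p = 0.955 and 0.987 in limma), which brought the count of the set past them in AF to 1. Within a tissue this block joined a fl/fl and a cKO array, which share only a number. The fit over 16 arrays used another block, of NP and AF arrays with the same genotype and number. The correlation estimated for that second block was -0.0032.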
